A study of Homo sapiens with 15 samples.

Results

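The CCN genes and the genes of the YAP branch of the Hippo pathway were followed as 10 genes picked by name from an expression table of 60675 genes, and all 10 were found. They comprise 5 CCN genes under their older symbols (CYR61, CTGF, NOV, WISP1 and WISP2, now CCN1 to CCN5), 2 further YAP targets (ANKRD1 and AMOTL2), the coactivators YAP1 and WWTR1 (the TAZ gene), and the DNA-binding factor TEAD1. Of these, 9 passed a filter on low counts and were tested among 17780 genes, and WISP2 did not pass.

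CCN proteins are secreted matrix-associated proteins that bind integrins, heparan sulfate proteoglycans and growth factors, and CTGF is best known for its role in fibrosis and connective tissue. YAP and TAZ enter the nucleus when the Hippo kinases LATS1 and LATS2 leave them unphosphorylated, and there they switch on genes through TEAD factors. CYR61, CTGF, ANKRD1 and AMOTL2 are widely used as readouts of that activity.

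RNA was sequenced from HT1080, an established human fibrosarcoma cell line, after depletion of ribosomal RNA. In untreated cells the endogenous KDAC4 (HDAC4) carried H803A, taken here as inactive (3 count libraries), or H976Y, taken here as enhanced because a tyrosine at that site is known to raise the activity of class IIa deacetylases (4 libraries). In 4 further libraries of untreated cells KDAC7 (HDAC7) carried H709A, taken here as inactive, and 3 libraries came from wild-type cells exposed to 1 µM TMP195, a class IIa deacetylase inhibitor, for 2 days. Untreated wild-type cells were not used here, so a gene that is low in one group cannot be told apart from a gene that is high in the other 3. The labels do not say whether a variant line is a single clone or whether libraries of a group came from separate cultures. The p-values thus reflect only how these samples vary, a spread that may be technical, and in bulk RNA fewer expressing cells and less RNA per cell cannot be told apart.

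Total counts ran from 6151417 to 24297525 per library, so that 1 CPM (count per scaled library size, in the usual unit, after TMM scaling) stood for 4.86 to 23.9 counts. Mitochondrial ribosomal RNA made up 16.1 to 31.5% of each KDAC4 H976Y library and at most 0.345% of any other, and small nucleolar RNA made up 0.722 to 0.913% there against at most 0.101%. The preparation of those libraries and their genotype cannot be told apart. The library labelled KDAC4 H803A replicate 1 lay far from the other 2 of its group (chi-square per degree of freedom 220.4 and 244) and close to the library labelled KDAC7 H709A replicate 4 (2.02, the lowest of the 91 pairs). The library labelled KDAC7 H709A replicate 1 lay at 142 to 284 from the others of its group and nearer to KDAC4 H803A replicates 2 and 3, at 42.4 and 30.9. KDAC7 H709A replicate 4 lay at 60.8 and 64.6 from replicates 2 and 3 of its group, which lay at 14.8 from each other. It lay at 267 and 298 from KDAC4 H803A replicates 2 and 3. The distances thus go against the labels of KDAC4 H803A replicate 1 and KDAC7 H709A replicate 1, but not of KDAC7 H709A replicate 4. These 3 libraries are said below to stand apart. Whether any were exchanged was not tested, and every value of KDAC4 H803A and KDAC7 H709A below follows the labels as given. Calls that ended without the 3 libraries, and called differences that moved by over 1.5 times in fold, are given both ways. The 3 were picked by their distances in these same data, which narrows the spread within groups. Adjusted p-values without them therefore tend to be too small. The 5 mesenchymal markers (VIM, SPARC, TIMP1, COL6A1 and COL6A2) summed to 3330 to 6372 CPM in every library. Epithelial markers summed to 1.77 to 12.9 CPM and neural markers to 0.503 to 5.21 CPM, while endothelial markers (68.0 to 154 CPM) rested on TIE1 and blood markers (17.1 to 144 CPM) on CD68, with PTPRC, HBB and DCX at 0.

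The 4 genes used as YAP readouts were lowest in KDAC4 H976Y cells. CYR61, CTGF, ANKRD1 and AMOTL2 had lower CPM in each of the 4 KDAC4 H976Y libraries than in any of the 10 others, a pattern that 6.32% of the tested genes shared. CYR61 and CTGF were 5.40 to 7.22 times as high in the other groups, ANKRD1 3.69 to 4.41 times and AMOTL2 2.07 to 2.57 times.

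CYR61 (ENSG00000142871, GRCh38 chromosome 1, 85580761 to 85583962, plus strand) encodes a CCN protein that promotes adhesion and migration. It had 116, 152, 126 and 151 CPM in KDAC4 H976Y and 790.3, 641 and 788 CPM in KDAC4 H803A. Its values were 1393, 626, 543 and 797 CPM in KDAC7 H709A and 738, 772 and 729 CPM with TMP195. The KDAC4 H976Y libraries did not overlap with any other group, and among the rest only KDAC7 H709A replicate 1 stood clearly higher. In edgeR's quasi-likelihood test with Benjamini-Hochberg adjustment over all tested genes, CYR61 was higher than in KDAC4 H976Y by log2 2.44 ± 0.28 (SE) in KDAC4 H803A (adjusted p = 0.000206), 2.62 ± 0.27 in KDAC7 H709A (adjusted p = 8.8e-05) and 2.45 ± 0.28 with TMP195 (adjusted p = 0.000108).

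CTGF (ENSG00000118523, chromosome 6, 131948176 to 131951373, minus strand) encodes a CCN protein that raises matrix production. It had 76.0, 82.3, 81.6 and 71.9 CPM in KDAC4 H976Y. In KDAC4 H803A it had 643, 308 and 312 CPM, in KDAC7 H709A 931, 359, 324 and 639 CPM, and with TMP195 550.0, 579 and 456 CPM. The KDAC4 H976Y values were again below all others, and the 3 libraries that stand apart from their groups held the 3 highest CTGF values within the variants. The log2 differences from KDAC4 H976Y were 2.43 ± 0.36 in KDAC4 H803A (adjusted p = 0.00111), 2.85 ± 0.35 in KDAC7 H709A (adjusted p = 0.00027) and 2.76 ± 0.36 with TMP195 (adjusted p = 0.000322; same edgeR test).

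ANKRD1 (ENSG00000148677, chromosome 10, 90912096 to 90921276, minus strand) encodes a cardiac ankyrin repeat protein that is induced by stretch. It had 30.5, 32.1, 36.2 and 26.2 CPM in KDAC4 H976Y. It had 174, 104 and 125 CPM in KDAC4 H803A, 77.5, 101, 102 and 181 CPM in KDAC7 H709A, and 141, 148 and 125 CPM with TMP195. No value outside KDAC4 H976Y came near that group, and the other 3 groups overlapped with one another. The log2 differences from KDAC4 H976Y were 2.10 ± 0.27, 1.89 ± 0.26 and 2.14 ± 0.27 in that order (edgeR, adjusted p = 0.000518, 0.000572 and 0.00025).

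AMOTL2 (ENSG00000114019, chromosome 3, 134355874 to 134375479, minus strand) encodes an angiomotin-like scaffold that binds YAP and holds it in the cytoplasm. It had 173, 178, 172 and 152 CPM in KDAC4 H976Y. It had 336, 493 and 473 CPM in KDAC4 H803A, 442, 335, 276 and 341 CPM in KDAC7 H709A, and 416, 441 and 382 CPM with TMP195. The gap between KDAC4 H976Y and the rest was narrower than for the other 3 readouts. The log2 differences were 1.36 ± 0.19, 1.05 ± 0.18 and 1.29 ± 0.19 (edgeR, adjusted p = 0.000823, 0.00221 and 0.00072). AMOTL2 is rich in G and C (56.7% of its longest transcript), and with offsets for GC content and length the KDAC4 H803A difference was 0.99 (adjusted p = 0.00159; 3.41e-10 to 0.0113 over the alternatives).

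**Figure D1:**
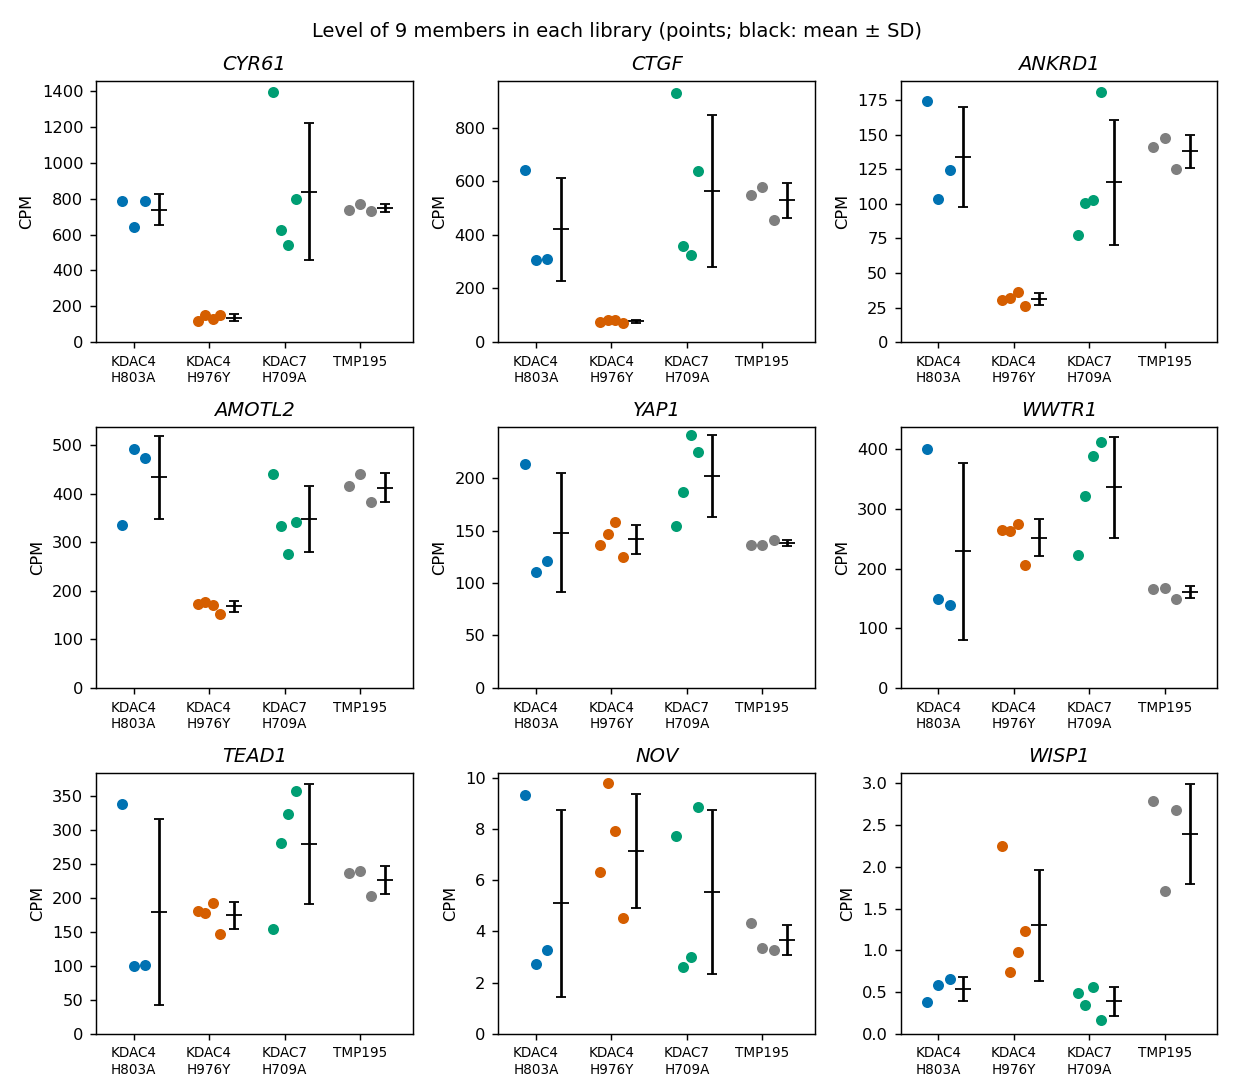
Level of the 9 tested genes in every library, in CPM on linear axes that start at 0, by group. Points are libraries, and black marks are the group mean with its SD. CYR61, CTGF, ANKRD1 and AMOTL2 are lower in all 4 KDAC4 H976Y libraries than in any other library.

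These 4 genes made up all the called members in KDAC4 H803A against KDAC4 H976Y (4 of 9 tested, where 15.1% of all tested genes were called) and in TMP195 against KDAC4 H976Y (4 of 9, against 16.5%). In KDAC7 H709A against KDAC4 H976Y, 5 of 9 were called (against 12.5%), the same 4 higher and WISP1 lower. The 3 comparisons share the KDAC4 H976Y libraries, so they are not independent of one another. The calls of the 4 genes kept their direction and their significance in 23 of 23 alternatives in each comparison. Without KDAC4 H803A replicate 1 and KDAC7 H709A replicates 1 and 4, the CYR61 differences from KDAC4 H976Y were 2.38, 2.10 and 2.45 and those of CTGF were 1.97, 2.13 and 2.75 (log2; KDAC4 H803A, KDAC7 H709A and TMP195). Those of ANKRD1 were then 1.85, 1.70 and 2.13 and those of AMOTL2 1.504, 0.86 and 1.29, and all 12 remained called. With mitochondrially encoded and small nucleolar RNA genes left out of the fit, they were 2.44, 2.62 and 2.46 for CYR61 and 2.43, 2.85 and 2.76 for CTGF.

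The starts of CTGF, ANKRD1 and AMOTL2 are shown because each carries the core letters bound by TEAD factors, GGAATG, or its reverse complement CATTCC, within the 250 bases before a RefSeq start site. The capitals mark those letters, and sequences are from RefSeq on GRCh38.p14, 5′ to 3′ on the strand of the gene. They cover chr6:131951374-131951622 (CTGF, minus strand), chr10:90921277-90921337 and chr10:90921198-90921227 (ANKRD1, minus strand), and chr3:134374499-134374528 (AMOTL2, minus strand). The second ANKRD1 stretch and the AMOTL2 stretch are cut to 30 bases because GENCODE places them in a first exon.
CTGF promoter: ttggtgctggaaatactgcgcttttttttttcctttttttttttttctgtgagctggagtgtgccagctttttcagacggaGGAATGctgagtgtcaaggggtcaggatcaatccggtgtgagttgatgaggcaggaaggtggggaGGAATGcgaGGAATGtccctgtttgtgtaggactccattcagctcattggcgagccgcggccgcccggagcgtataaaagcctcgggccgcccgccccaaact
ANKRD1 promoter: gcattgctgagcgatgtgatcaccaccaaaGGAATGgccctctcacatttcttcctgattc
ANKRD1 site: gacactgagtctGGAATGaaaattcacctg
AMOTL2 site: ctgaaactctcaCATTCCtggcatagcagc

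The CTGF window held 3 copies, at -169, -104 and -95 from the start, all as GGAATG, and 0.0826% of the 35116 windows of the same length held 3 or more. ANKRD1 held 2 copies, at -220 and -128, a number reached or exceeded by 0.94% of windows. AMOTL2 held 1, at -69, in the window of 1 of its 2 RefSeq starts, and at least 1 copy stood in 11.9% of all windows. YAP1 held 1, at -162, and the 2 windows of WWTR1 held none. A match is a description of letters and not a measured binding site. Windows were matched for 5 of the 10 genes (CTGF, ANKRD1, AMOTL2, YAP1 and WWTR1). CYR61 had no matched window, so its start was not examined.

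With all 14 libraries, the coactivators and TEAD1 passed no test in any of the 6 comparisons. YAP1 (ENSG00000137693, chromosome 11, 102110461 to 102233423) had 136, 147, 158 and 125 CPM in KDAC4 H976Y and 213, 110.3 and 121 CPM in KDAC4 H803A. It had 155, 186, 241 and 225 CPM in KDAC7 H709A and 136, 136 and 141 CPM with TMP195. The groups overlapped except that every TMP195 library lay below every KDAC7 H709A library, as for 11.8% of all tested genes. The log2 differences from KDAC4 H976Y were 0.07 ± 0.23 in KDAC4 H803A, 0.51 ± 0.21 in KDAC7 H709A and -0.04 ± 0.23 with TMP195 (edgeR, adjusted p = 0.857, 0.141 and 0.916).

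WWTR1 (ENSG00000018408, chromosome 3, 149517235 to 149736714) encodes TAZ, the close relative of YAP. It had 265, 263, 274 and 206 CPM in KDAC4 H976Y and 400.0, 148 and 139 CPM in KDAC4 H803A. It had 223, 322, 388 and 412 CPM in KDAC7 H709A and 166, 167 and 149 CPM with TMP195. Every TMP195 library was below every library of KDAC4 H976Y and of KDAC7 H709A, as for 26.6% and 11.8% of all tested genes. Neither difference passed the test, at log2 -0.65 ± 0.34 from KDAC4 H976Y (edgeR, adjusted p = 0.194) and -1.06 ± 0.34 from KDAC7 H709A (adjusted p = 0.0824; 5.45e-05 to 0.254 over the alternatives).

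TEAD1 (ENSG00000187079, chromosome 11, 12674591 to 12944483) encodes a factor through which YAP and TAZ reach DNA. It had 180.3, 179, 193 and 147 CPM in KDAC4 H976Y and 338, 99.8 and 102 CPM in KDAC4 H803A. It had 155, 282, 324 and 359 CPM in KDAC7 H709A and 237, 241 and 204 CPM with TMP195. KDAC4 H803A replicate 1 held over 3 times the level of its 2 partners and sat among the KDAC7 H709A libraries. Every TMP195 library lay above every KDAC4 H976Y library, as for 27.2% of all tested genes. The log2 differences from KDAC4 H976Y were 0.04 ± 0.39, 0.68 ± 0.36 and 0.38 ± 0.39 (KDAC4 H803A, KDAC7 H709A and TMP195; edgeR, adjusted p = 0.948, 0.251 and 0.517).

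Within the inactive variants, the levels of these 3 genes and the GC bias of the libraries varied together, and a cause was not tested. Their longest transcripts hold 43.5, 40.9 and 41.3% G and C (YAP1, WWTR1 and TEAD1), against a median of 48.1% over the tested genes. The level of GC-rich minus GC-poor genes, on the log2 scale, was -1.09, 1.382 and 1.24 in the 3 KDAC4 H803A libraries and 1.13, -0.45, -0.95 and -1.13 in the 4 KDAC7 H709A libraries. In both groups the libraries with negative values held the higher WWTR1 and TEAD1 levels, and AMOTL2, rich in G and C, was lowest among the KDAC4 H803A libraries in the one with the negative value. CTGF (51.5% G and C) was highest in that library (643 CPM) but in KDAC7 H709A was highest in the library with the positive value (931 CPM). These 2 libraries, replicate 1 of each group, are also among the 3 that stand apart, so GC bias and that difference cannot be told apart. With offsets for GC content and length, YAP1 in KDAC7 H709A exceeded its KDAC4 H976Y level by 0.42 (adjusted p = 0.0346) and WWTR1 was lower with TMP195 than in KDAC7 H709A by 0.64 (log2 -0.64, adjusted p = 0.0473), and no other call was gained or lost for the 3 genes.

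**Figure D2:**
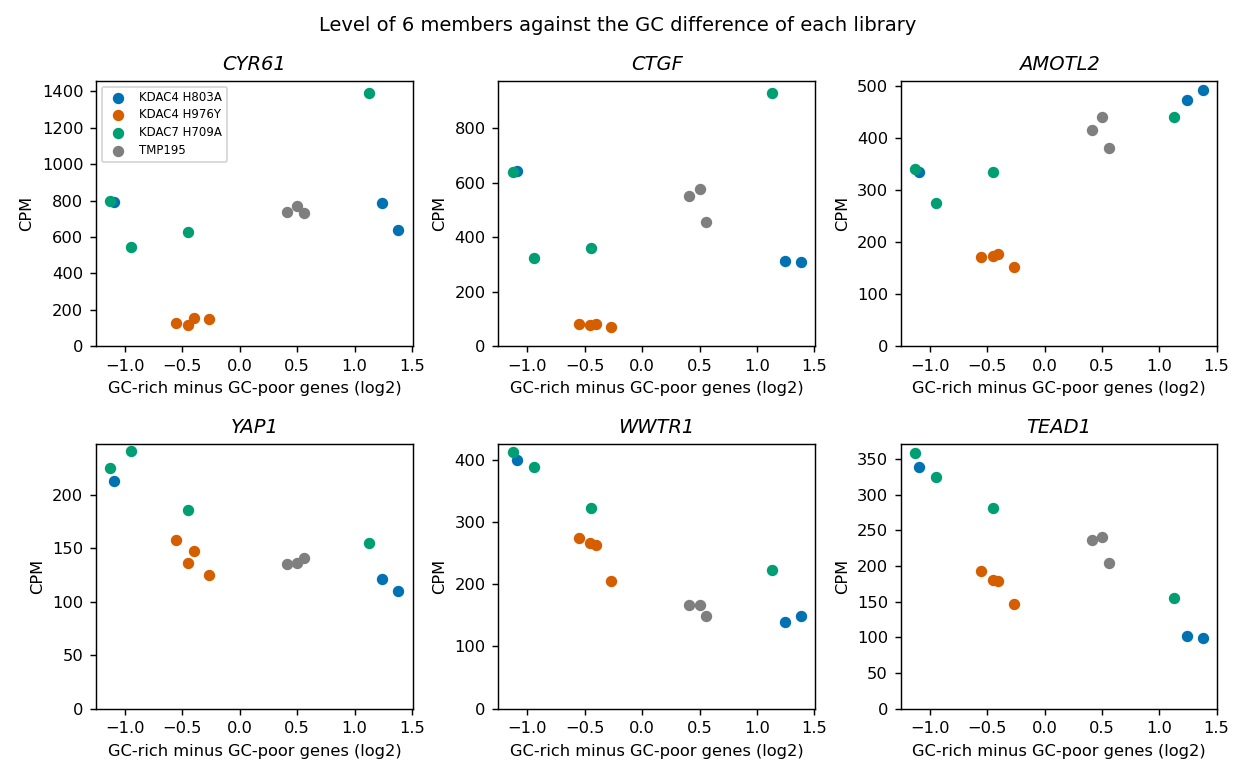
Level of 6 members in CPM against the GC bias of each library, the log2 level of GC-rich minus GC-poor genes, with 1 point per library coloured by group. The 3 KDAC4 H803A libraries stand at -1.09, 1.382 and 1.24, and TEAD1 is at 338 CPM in the first and 99.8 and 102 CPM in the others.

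Leaving out the 3 libraries that stand apart changed the result for these 3 genes. Because those libraries were picked by their distances in these data, the adjusted p-values that follow tend to be too small. KDAC4 H803A then had less TEAD1 (log2 -0.81, adjusted p = 0.000246) and WWTR1 (-0.83, adjusted p = 0.000275) than KDAC4 H976Y in the edgeR test. KDAC7 H709A then exceeded KDAC4 H803A in TEAD1 (1.61, adjusted p = 4.2e-06), WWTR1 (1.32, adjusted p = 2.11e-05) and YAP1 (0.90, adjusted p = 0.000274), and fell short of it in AMOTL2 (-0.65, adjusted p = 0.00237). It also exceeded KDAC4 H976Y in TEAD1 (0.79, adjusted p = 0.000584), YAP1 (0.60, adjusted p = 0.00416) and WWTR1 (0.50, adjusted p = 0.016). With TMP195, WWTR1 was then lower than in KDAC4 H976Y (-0.66, adjusted p = 0.000816) and KDAC7 H709A (-1.15, adjusted p = 5.45e-05). TEAD1 with TMP195 was higher than in KDAC4 H976Y (0.37, adjusted p = 0.02) and KDAC4 H803A (1.18, adjusted p = 4.61e-05) and lower than in KDAC7 H709A (-0.42, adjusted p = 0.0282), and YAP1 was lower than in KDAC7 H709A (-0.64, adjusted p = 0.00261). The share of all tested genes called rose as well: against KDAC4 H976Y to 64.5% in KDAC4 H803A, 31.8% in KDAC7 H709A and 53.9% with TMP195, in KDAC7 H709A against KDAC4 H803A to 60.2%, and for TMP195 to 47.9% against KDAC4 H803A and 45.7% against KDAC7 H709A. GC bias still differed between the libraries kept. The part of GC bias in these differences was not tested beyond the offsets above, which were applied to all 14 libraries.

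**Figure D3:**
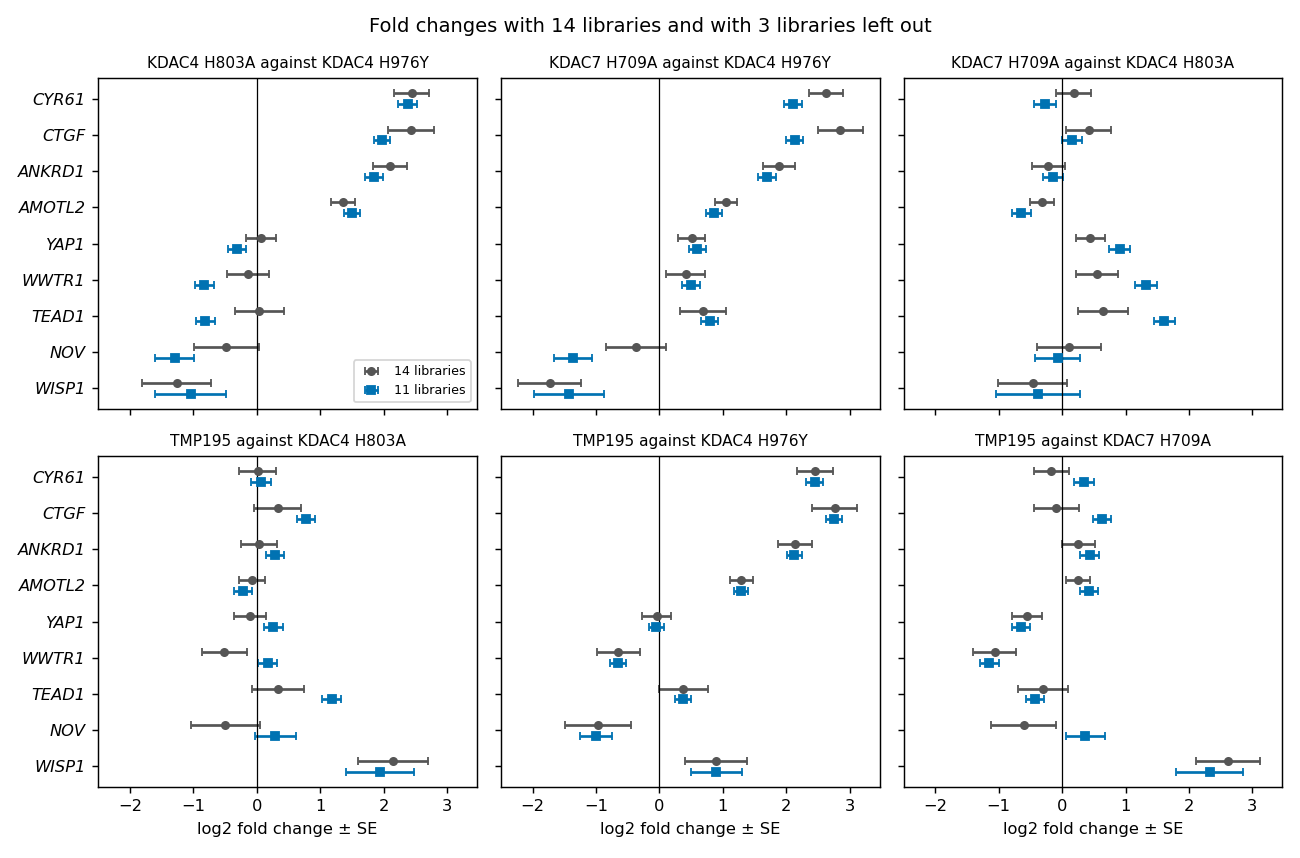
Log2 fold change of each tested member with all 14 libraries and without KDAC4 H803A replicate 1 and KDAC7 H709A replicates 1 and 4, by comparison, with SE bars. CYR61, CTGF, ANKRD1 and AMOTL2 stay above 0 against KDAC4 H976Y in both, whereas TEAD1 and WWTR1 move from near 0 to -0.81 and -0.83 in KDAC4 H803A.

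Among the other CCN genes, WISP1 was the one with calls. WISP1 (ENSG00000104415, chromosome 8, 133191039 to 133231690), a target of WNT signalling, had 2.79, 1.71 and 2.67 CPM with TMP195 and 2.25, 0.745, 0.974 and 1.24 CPM in KDAC4 H976Y. It had 0.380, 0.581 and 0.658 CPM in KDAC4 H803A and 0.483, 0.347, 0.563 and 0.168 CPM in KDAC7 H709A. Every library of either inactive variant lay below every library of the other 2 groups. Of the 17780 tested genes, 1956 were likewise lower without overlap in KDAC4 H803A than in KDAC4 H976Y, and 1592 in KDAC7 H709A than in KDAC4 H976Y. Those lower without overlap than with TMP195 numbered 2284 in KDAC4 H803A and 2213 in KDAC7 H709A. With TMP195 WISP1 was higher than in KDAC7 H709A by log2 2.62 ± 0.51 (edgeR, adjusted p = 0.00808; 9.58e-05 to 0.0453 over 23 alternatives) and higher than in KDAC4 H803A by 2.15 ± 0.55 (adjusted p = 0.0389; 0.00727 to 0.142).

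WISP1 was lower in KDAC7 H709A than in KDAC4 H976Y by log2 -1.73 ± 0.50 (edgeR, adjusted p = 0.0364; 0.0147 to 0.143), a call that was lost without the 3 libraries that stand apart (-1.43, adjusted p = 0.0615). These levels rest on few counts per library, and the call passed in 12 of 22 alternatives here and in 11 of 23 for TMP195 against KDAC4 H803A. WISP1 was the 1 member of 9 called in TMP195 against KDAC4 H803A (where 5.34% of tested genes were called) and in TMP195 against KDAC7 H709A (6.29%). The other 2 differences did not pass, at -1.26 ± 0.54 for KDAC4 H803A against KDAC4 H976Y (adjusted p = 0.12) and 0.88 ± 0.49 for TMP195 against KDAC4 H976Y (adjusted p = 0.221).

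NOV (ENSG00000136999, chromosome 8, 119416306 to 119424353), a CCN gene often opposed to CTGF in fibrosis, had 6.33, 9.79, 7.90 and 4.53 CPM in KDAC4 H976Y and 9.31, 2.71 and 3.29 CPM in KDAC4 H803A. It had 7.72, 2.60, 3.00 and 8.85 CPM in KDAC7 H709A and 4.32, 3.36 and 3.28 CPM with TMP195. Its 3 high values in the inactive variants were those of the 3 libraries that stand apart, and no comparison called it (edgeR, adjusted p = 0.208 at the lowest). Without those libraries it was lower than in KDAC4 H976Y by log2 -1.30 in KDAC4 H803A (adjusted p = 0.0024), -1.37 in KDAC7 H709A (adjusted p = 0.00376) and -1.001 with TMP195 (adjusted p = 0.00461).

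WISP2 (ENSG00000064205, chromosome 20, 44714844 to 44728509), a CCN gene that lacks the C-terminal domain of the others, was at or near 0 in every library. Its highest level was 0.366 CPM, and the group totals were 5 counts for KDAC4 H803A, 2 for KDAC4 H976Y, 13 for KDAC7 H709A and 13 for TMP195. WISP3, the remaining CCN gene, had at most 1.13 CPM and was not tested either.

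**Figure D4:**
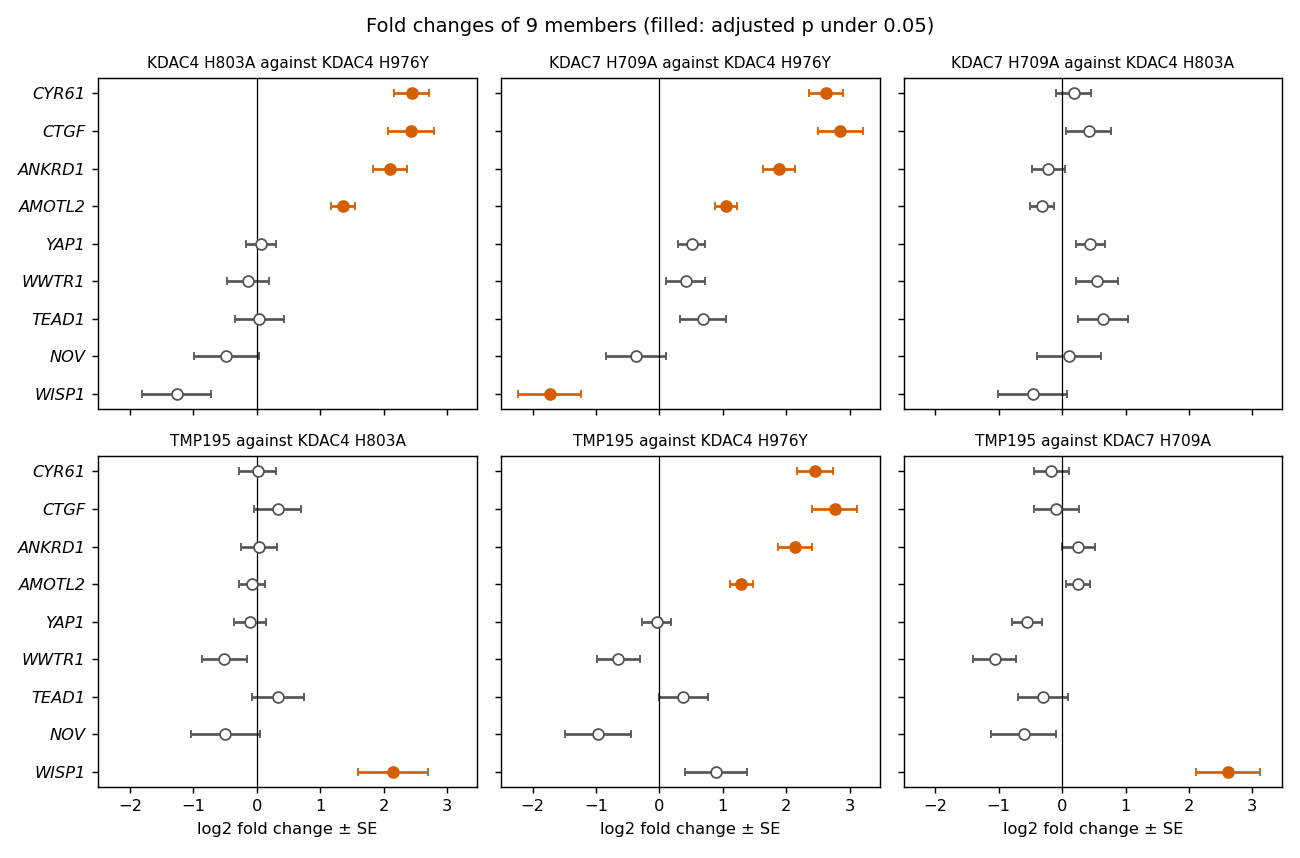
Log2 fold change with SE of the 9 tested members in the 6 comparisons, where filled points are called at an adjusted p under 0.05. CYR61, CTGF, ANKRD1 and AMOTL2 lie between 1.05 and 2.85 in the 3 comparisons with KDAC4 H976Y and within 0.42 of 0 in the others.

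Between the inactive variants and TMP195, none of the 4 readouts passed the edgeR test with all 14 libraries. In KDAC7 H709A against KDAC4 H803A edgeR called 0 of 9 members, as it called 0.0% of all tested genes, with 0 members at an unadjusted p under 0.05. DESeq2 also called 0 members there, and 0.446% of all genes it tested. Adjusted p-values there ran from 0.634 to 0.923. For CYR61 the log2 differences were 0.18 ± 0.28 for KDAC7 H709A against KDAC4 H803A, 0.01 ± 0.29 for TMP195 against KDAC4 H803A and -0.17 ± 0.28 for TMP195 against KDAC7 H709A. For CTGF they were 0.42 ± 0.35, 0.33 ± 0.38 and -0.09 ± 0.35 in the same order. Without the 3 libraries that stand apart, CTGF with TMP195 was higher than in KDAC4 H803A by 0.78 (edgeR, adjusted p = 0.000654) and than in KDAC7 H709A by 0.62 (adjusted p = 0.00321). ANKRD1 and AMOTL2 with TMP195 were then also higher than in KDAC7 H709A, by 0.43 each (adjusted p = 0.0264 and 0.0236), and AMOTL2 was lower in KDAC7 H709A than in KDAC4 H803A as given above.

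Per length, CYR61 was the most abundant member outside KDAC4 H976Y. CPM per kilobase of effective gene length were 408 ± 47.2 (SD, n = 3) for CYR61 and 201 ± 92.2 for CTGF in KDAC4 H803A, 463 ± 212 and 269 ± 135 (n = 4) in KDAC7 H709A, and 412 ± 12.4 and 253 ± 30.6 (n = 3) with TMP195. In KDAC4 H976Y the order changed, with WWTR1 first at 170.4 ± 21.2 (n = 4), then CYR61 at 75.2 ± 9.88 and AMOTL2 at 74.9 ± 5.11, which do not differ beyond their spread. TEAD1 at 53.9 ± 6.11 and YAP1 at 53.0 ± 5.25 followed, also within their spread, then CTGF at 37.3 ± 2.36, ANKRD1 at 18.1 ± 2.39 and NOV at 6.35 ± 1.99. WISP1 and WISP2 stood last in every group, at 0.0619 to 0.666 per kilobase. With the length of the longest transcript in place of the effective length, CYR61 stood first in KDAC4 H976Y too, at 59.5 against 50.1 for WWTR1.

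Genes whose levels ran most like CYR61 across the 14 libraries were TIAM1 (Pearson r of log2 CPM 0.993), SCN8A (0.990), STARD13 (0.985), ZNF544 (0.982) and LATS2 (0.982). For CTGF they were ARHGAP17 (0.982), NMNAT2 (0.976), CD274 (0.975), STARD13 (0.975) and CYR61 (0.974). The correlations describe libraries that share 4 groups and their depth and GC bias, and all of these genes were lowest in KDAC4 H976Y. STARD13 and LATS2 lie on chromosome 13 and CD274 on chromosome 9. Median log2 differences from KDAC4 H976Y were 0.72, 1.0 and 0.69 on chromosome 13 (KDAC4 H803A, KDAC7 H709A and TMP195). On chromosome 9 they were 0.49, 0.44 and 0.34. The part of these shifts in the correlations was not tested.

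The list of Hippo kinases and upstream regulators held 24 genes, all tested, and those that passed were all higher outside KDAC4 H976Y. They numbered 6 higher and 0 lower in KDAC4 H803A (list median log2 0.41, against 0.09 over all tested genes), 4 and 0 in KDAC7 H709A (0.31 against 0.09) and 2 and 0 with TMP195 (0.03 against 0.03). Of all tested genes, 9.21% were called higher and 5.85% lower in KDAC4 H803A, 7.28% and 5.19% in KDAC7 H709A, and 7.96% and 8.55% with TMP195. LATS2, a kinase that phosphorylates YAP and is itself a YAP target, had 21.4, 21.4, 18.3 and 16.3 CPM in KDAC4 H976Y and 52.3 to 92.9 CPM in the 10 other libraries, with no overlap. Of all tested genes, 6.32% were likewise lower in KDAC4 H976Y than in every other library. Its log2 differences from KDAC4 H976Y were 1.86 ± 0.21, 1.78 ± 0.20 and 1.88 ± 0.21 (edgeR, adjusted p = 0.000167, 0.00014 and 8.54e-05). LATS2 lies on chromosome 13, where the 330 tested genes had median differences of 0.72, 1.0 and 0.69 in the same comparisons, and the part of that shift in its result was not tested.

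Others of this list were called in fewer comparisons. DCHS1, an atypical cadherin, was higher in KDAC4 H803A by 4.05 ± 0.69 (edgeR, adjusted p = 0.00258) and with TMP195 by 3.18 ± 0.68 (adjusted p = 0.0076). These sizes rest on 3 to 6 DCHS1 counts per KDAC4 H976Y library, and were 2.98 and 2.79 with GC and length offsets. In KDAC4 H803A, replicate 1 had 1.39 CPM of DCHS1 and the others 14.3 and 11.7 CPM. WWC1, the scaffold KIBRA, was higher in KDAC4 H803A by 1.48 ± 0.27 (adjusted p = 0.0038). AMOT, a relative of AMOTL2, was higher by 1.17 ± 0.32 in KDAC4 H803A and 1.18 ± 0.30 in KDAC7 H709A (adjusted p = 0.0265 and 0.0204). MAP4K4, a kinase that feeds into LATS, was higher by 0.70 ± 0.19 and 0.64 ± 0.18 (adjusted p = 0.0265 and 0.03; 0.00116 to 0.155 over the alternatives in KDAC7 H709A). Without the 3 libraries that stand apart, the KDAC7 H709A call of MAP4K4 was lost (0.35, adjusted p = 0.0564), while DCHS1 and WWC1 in KDAC4 H803A stood at 4.58 and 1.75 (adjusted p = 2.76e-07 and 4.03e-08).

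Of the 18 other YAP and TAZ targets, 4 were higher and 0 lower in KDAC4 H803A than in KDAC4 H976Y (list median 0.67 over 17 genes), 5 and 0 in KDAC7 H709A (0.86) and 4 and 0 with TMP195 (0.54), beside the shares of all genes given above. LATS2 is among these in all 3 comparisons and is counted in both lists. FJX1, the human homologue of a fly planar polarity gene, was called in all 3, by 1.78 ± 0.33, 1.57 ± 0.31 and 1.66 ± 0.33 (edgeR, adjusted p = 0.00388, 0.0052 and 0.00445). NUAK2, a kinase, was higher by 2.45 ± 0.44 in KDAC4 H803A and 1.56 ± 0.41 in KDAC7 H709A (edgeR, adjusted p = 0.00329 and 0.025). FOXF2, a forkhead factor, was higher by 0.73 ± 0.22 and 1.05 ± 0.20 (adjusted p = 0.0405 and 0.00496; 0.00586 to 0.72 over the alternatives in KDAC4 H803A, called in 9 of 23). The KDAC7 H709A call of FOXF2 passed in 21 of 23 alternatives and was lost with GC and length offsets (1.14, edgeR, adjusted p = 0.0857). Without the 3 libraries that stand apart, the KDAC7 H709A differences of FJX1 and NUAK2 were 0.80 and 0.855 (edgeR, adjusted p = 0.00267 and 0.0138). The receptor kinase AXL was higher with TMP195 by 0.74 ± 0.19 (adjusted p = 0.0183; 2.31e-05 to 0.412 over the alternatives). IGFBP3 was at 0 counts in every KDAC4 H803A and KDAC4 H976Y library and in KDAC7 H709A replicates 1 and 4. It had 6.16 and 5.95 CPM in KDAC7 H709A replicates 2 and 3 and 0.381, 0.855 and 0.602 CPM with TMP195.

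Of the 7 other TEAD and VGLL factors, 5 were tested. TEAD3 and TEAD4 were higher in KDAC4 H803A by 0.95 ± 0.27 and 0.80 ± 0.25 (edgeR, adjusted p = 0.0322 and 0.049), TEAD2 was higher in KDAC7 H709A by 1.16 ± 0.34 (adjusted p = 0.0416), and TEAD3 was higher with TMP195 by 1.07 ± 0.27 (adjusted p = 0.016). The TEAD4 call passed in 6 of 23 alternatives, the TEAD2 call in 9, and the TEAD3 calls in 11 (KDAC4 H803A) and 20 (TMP195). With GC and length offsets the KDAC4 H803A calls of TEAD3 and TEAD4 were lost, at 0.59 and 0.35 (edgeR, adjusted p = 0.121 and 0.277).

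Most receptors of CCN proteins were not called. Of 10 tested, 1 was higher and 3 lower in KDAC4 H803A than in KDAC4 H976Y, 0 and 1 in KDAC7 H709A, and 1 and 0 with TMP195, beside the shares of all genes given above. The gene called higher in KDAC4 H803A was NOTCH1. ITGB3, the integrin beta 3 subunit, had 23.1, 21.3, 25.98 and 16.3 CPM in KDAC4 H976Y, 1.39, 0.872 and 2.08 CPM in KDAC4 H803A and 1.54, 5.55, 5.26 and 1.89 CPM in KDAC7 H709A. It had 57.8, 59.2 and 50.02 CPM with TMP195. The 4 groups fell into 3 separate ranges, with both inactive variants lowest, KDAC4 H976Y in between and TMP195 highest. Of the 17780 tested genes, 1956 were likewise lower without overlap in KDAC4 H803A than in KDAC4 H976Y, and 1592 in KDAC7 H709A than in KDAC4 H976Y. With TMP195, 2284 were higher without overlap than in KDAC4 H803A, 2213 than in KDAC7 H709A and 4845 than in KDAC4 H976Y.

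ITGB3 was lower than in KDAC4 H976Y by log2 -3.91 ± 0.48 in KDAC4 H803A (edgeR, adjusted p = 0.000385) and -2.61 ± 0.39 in KDAC7 H709A (adjusted p = 0.00109). With TMP195 it was higher than in KDAC4 H803A by 5.26 ± 0.52 (adjusted p = 4.02e-05), than in KDAC7 H709A by 3.97 ± 0.42 (adjusted p = 7.49e-05) and than in KDAC4 H976Y by 1.36 ± 0.39 (adjusted p = 0.0307; 2.1e-05 to 0.163 over the alternatives). ITGA5 and ITGB5, 2 further integrin subunits, were lower in KDAC4 H803A than in KDAC4 H976Y by -1.20 ± 0.25 and -1.23 ± 0.28 (adjusted p = 0.00876 and 0.0134). With TMP195 they were higher than in KDAC4 H803A by 1.32 ± 0.27 and 1.16 ± 0.30 (adjusted p = 0.0104 and 0.0369), the latter in 10 of 23 alternatives. Without the 3 libraries that stand apart, ITGB3 was lower in KDAC7 H709A by -2.01 (adjusted p = 2.05e-05) and higher with TMP195 than in KDAC7 H709A by 3.36 (adjusted p = 4.06e-07).

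SRF, the factor that MRTF coactivators bind, was higher outside KDAC4 H976Y by 0.89 ± 0.18 in KDAC4 H803A, 0.84 ± 0.17 in KDAC7 H709A and 0.88 ± 0.18 with TMP195 (edgeR, adjusted p = 0.00647, 0.0059 and 0.00556). The call was lost with GC and length offsets in all 3, at 0.47, 0.86 and 0.57 (adjusted p = 0.318, 0.0734 and 0.235). Of 11 tested genes of the MRTF and SRF list, 1 was higher and 0 lower in each inactive variant, and 3 were higher and 1 lower with TMP195, beside the shares of all genes given above. TAGLN and MYL9, smooth-muscle contractile genes, were higher with TMP195 by 1.97 ± 0.45 and 1.33 ± 0.29 (adjusted p = 0.0109 and 0.00833). With GC and length offsets the MYL9 call was lost (1.08, edgeR, adjusted p = 0.0899) and the TAGLN call held (1.72, adjusted p = 0.00273). In TMP195 against KDAC7 H709A, 1 gene of this list was higher and 1 lower, where 1.99% of all tested genes were higher and 4.31% lower. TAGLN was higher by 1.88 ± 0.44 (adjusted p = 0.0241; 2.87 without the 3 libraries, adjusted p = 9.42e-07). The smooth-muscle actin ACTA2 was lower at -0.89 ± 0.24 (adjusted p = 0.0411), called in 8 of 23 alternatives.

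**Figure D5:**
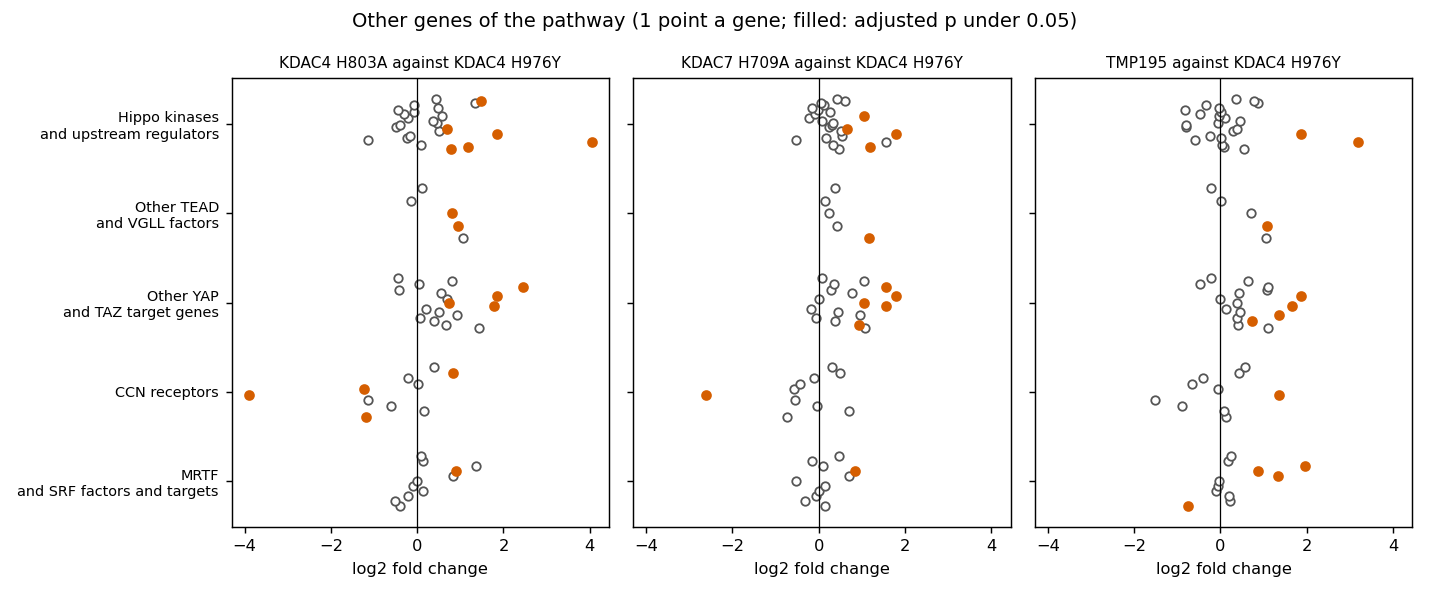
Log2 fold change against KDAC4 H976Y of every tested gene of the 5 pathway lists, by comparison, with 1 point per gene and called genes filled. The other YAP and TAZ targets have medians of 0.67, 0.86 and 0.54, and the CCN receptors -0.40, -0.28 and 0.02.

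At the median, the neighbours of the readouts on the chromosome did not share their differences. The 41 tested genes within 5 Mb of CYR61 had median log2 differences from KDAC4 H976Y of -0.40, 0.01 and -0.78 (KDAC4 H803A, KDAC7 H709A and TMP195). Those around CTGF (41 genes) had -0.23, 0.23 and -0.27, those around ANKRD1 (67 genes) -0.21, 0.18 and -0.35, and those around AMOTL2 (70 genes) 0.09, 0.21 and 0.05. In the same order, those called higher and lower were 2 and 3, 2 and 1, and 1 and 8 around CYR61. Around CTGF they were 2 and 4, 1 and 2, and 1 and 6. Around ANKRD1 they were 5 and 3, 2 and 1, and 0 and 8. Around AMOTL2 they were 5 and 1, 9 and 1, and 10 and 2, beside the shares of all genes given above. The size of the window was set once the values were known. Genes with exons over those of the members had few counts, at most 46 for AL133346.1, which is antisense to CTGF, and 20 for RPL39P5, which lies over AMOTL2.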

How the data were processed

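Expected counts per gene, not scaled between libraries, were deposited by the authors in 1 table for all libraries. RSEM 1.3.3, which shares reads among transcripts, Bowtie2 2.4.5, Trimmomatic 0.39, DESeq2 1.38.2 and the build GRCh38 are named without roles, per the submitters' processing notes. The sources used here give neither the annotation release nor the strand setting. Hence reads of overlapping antisense genes cannot be told apart, and near-identical genes share reads. The deposited column named for KDAC4 H803A replicate 4 holds effective gene lengths: for 7363 of 7608 genes with a single transcript (96.8%) it equals transcript length minus 248.86 bases, a difference shared by at most 0.237% of genes in any other column. It was left out as a sample, which leaves 14 libraries, and gave the gene lengths for levels per kilobase.

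Expected counts were rounded. Genes were filtered with filterByExpr (minimum count 10, minimum total 15), scaled by TMM and tested with edgeR 4.0.16 (quasi-likelihood, all 4 groups in 1 fit, no covariates; limma 3.58.1, R 4.3.3), with Benjamini-Hochberg adjustment over 17780 genes and a threshold of 0.05. SE is the log2 fold change over the square root of F. DESeq2 1.42.0, other size factors, no filter, pairs of groups alone, a replicate block, GC and length offsets, removal of mitochondrial and small nucleolar RNA genes, and left-out libraries were tried as alternatives (23 in all, 14 of them leaving out 1 library each). Where a left-out library leaves 2 in a group, the spread comes from all groups.

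Coordinates, GC content and lengths are from GENCODE v29 (57055 genes matched by ID). Named genes are the 10 members, per list and comparison the 3 called genes with the smallest adjusted p, and the 5 genes most correlated with CYR61 and with CTGF. The members and lists were chosen with earlier results of these data known.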

Additional observations from a re-analysis of the deposited data

Results flagged for a closer look

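WWTR1 in KDAC4 H976Y replicate 4 stood at 205.6 CPM, below the other 3 libraries of its group at 262.9, 265.4 and 274.2 CPM. Its gap to the nearest of them is 0.835 of the group's range, over the critical value of Dixon's test for 4 samples. Of 18 groups of 4 libraries examined, chance flags about 1 in 20. Leaving this library out changed no call of WWTR1.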

How the results depend on the processing

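The counts of called members depended mostly on the 3 libraries that stand apart. Without KDAC4 H803A replicate 1 and KDAC7 H709A replicates 1 and 4, 7 members were called in KDAC4 H803A against KDAC4 H976Y, 8 in KDAC7 H709A against KDAC4 H976Y, 4 in KDAC7 H709A against KDAC4 H803A, 3 in TMP195 against KDAC4 H803A, 7 in TMP195 against KDAC4 H976Y and 7 in TMP195 against KDAC7 H709A. Each of these counts is out of 9, and 31.8 to 64.5% of all tested genes were then called, as given above by comparison. Leaving out 1 library at a time gave 0 to 3 in KDAC7 H709A against KDAC4 H803A. The 3 were TEAD1, WWTR1 and YAP1, without KDAC4 H803A replicate 1, where 25.7% of all tested genes were called. In TMP195 against KDAC4 H803A it gave 0 to 1. Without KDAC4 H803A replicate 1 the 1 was TEAD1 (14.5% of all tested genes called) and the WISP1 call was lost. The count was 0 without KDAC4 H803A replicate 2 or 3, KDAC4 H976Y replicate 3, KDAC7 H709A replicate 2 or any TMP195 library (2.35 to 4.59%). In TMP195 against KDAC7 H709A it gave 1 to 3, with 3 without KDAC4 H803A replicate 1 (14.6%) and 2 without KDAC7 H709A replicate 1 (15.7%). TMP195 against KDAC4 H803A also gave 0 with no filter on low counts (2.2% of all tested genes called) and with only the 2 groups compared (2.15%). With only the 2 groups, TMP195 against KDAC4 H976Y gave 7, where 58.8% of all tested genes were called. TMP195 against KDAC7 H709A gave 2 with DESeq2, with GC and length offsets and with only the 2 groups. The cause of these changes was not tested.

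Same-numbered libraries did not deviate together (5 of 19 pairs had a correlation over 0.1, and 3 libraries correlated best with their own number), so the numbers were not taken as pairs. With the replicate number as a block, 0 members were called in TMP195 against KDAC4 H803A, where 3.17% of all tested genes were called. With GC and length offsets added to the block it was also 0, where 4.09% were called. With the block, the CTGF difference of TMP195 against KDAC7 H709A was 0.044 and the TEAD1 difference of KDAC4 H803A against KDAC4 H976Y was -0.031 (log2). The block changed calls of all tested genes from 2679 to 1230 in KDAC4 H803A against KDAC4 H976Y, from 2218 to 1322 in KDAC7 H709A against KDAC4 H976Y, from 949 to 563 in TMP195 against KDAC4 H803A, from 2936 to 1556 in TMP195 against KDAC4 H976Y and from 1119 to 453 in TMP195 against KDAC7 H709A.

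Directions turned only for differences that had not passed the test. Without the 3 libraries, the log2 differences of CYR61 became -0.273 (KDAC7 H709A against KDAC4 H803A) and 0.345 (TMP195 against KDAC7 H709A), and that of CTGF 0.621 (TMP195 against KDAC7 H709A). NOV became -0.072 (KDAC7 H709A against KDAC4 H803A), 0.294 (TMP195 against KDAC4 H803A) and 0.365 (TMP195 against KDAC7 H709A). YAP1 became -0.309 and TEAD1 -0.811 in KDAC4 H803A against KDAC4 H976Y, and YAP1 0.26 and WWTR1 0.171 in TMP195 against KDAC4 H803A. In TMP195 against KDAC4 H803A, CYR61 was -0.018 with DESeq2 size factors and with DESeq2, -0.012 with only the 2 groups, -0.102 with GC and length offsets and -0.081 with the replicate block and those offsets.

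GC and length offsets, and these with the replicate block, gave ANKRD1 -0.023 and -0.022 and AMOTL2 0.017 and 0.018 in TMP195 against KDAC4 H803A, YAP1 0.105 and 0.087 in TMP195 against KDAC4 H976Y, and TEAD1 0.13 and 0.121 in TMP195 against KDAC7 H709A. The offsets alone gave AMOTL2 0.013 in KDAC7 H709A against KDAC4 H803A and WWTR1 0.035 in KDAC4 H803A against KDAC4 H976Y.

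With 1 library left out at a time, the differences whose sign turned ranged as follows. In KDAC7 H709A against KDAC4 H803A, CYR61 ran from -0.188 to 0.344, NOV from -0.222 to 0.911 and ANKRD1 from -0.521 to 0.043. In TMP195 against KDAC4 H803A, CYR61 ran from -0.083 to 0.076, NOV from -0.802 to 0.295, ANKRD1 from -0.118 to 0.286, AMOTL2 from -0.214 to 0.029, YAP1 from -0.284 to 0.263 and WWTR1 from -0.808 to 0.174. In TMP195 against KDAC7 H709A, CYR61 ran from -0.331 to 0.196 and CTGF from -0.284 to 0.27. In KDAC4 H803A against KDAC4 H976Y, YAP1 ran from -0.311 to 0.24, WWTR1 from -0.829 to 0.139 and TEAD1 from -0.814 to 0.345.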
